A study of Mus musculus with 4 samples.

Results

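The transcripts described here are those encoded by the mitochondrial genome, measured by RNA sequencing of mouse brain at embryonic day 13. They were chosen as the genes placed on the mitochondrial chromosome in the deposited tables, whose names begin with mt-, and were split by biotype. The tables held 15 such genes among 22414 genes listed in either table, namely 12 protein_coding genes, 2 Mt_rRNA genes and 1 Mt_tRNA gene. All 15 were listed in both tables, and mt-Atp8 and the tRNA genes other than mt-Tp were not analysed here. The study compared Wt1_CKO brain, from mice labelled as a conditional knockout of Wt1, with Wt1_flfl brain, from mice labelled as wild type with floxed Wt1 alleles (Wt1fl/fl), with C57BL/6 given as the strain throughout. The gene deleted codes for a DNA-binding regulator of transcription, and the samples are labelled as brain. There were 2 libraries of each genotype, which carry the replicate numbers 1 and 2. Neither the Cre line nor the region of brain is named in the labels. Whether a sample was 1 embryo or a pool is likewise not given, so every p-value below covers the variation among these 4 libraries and may reflect technical spread alone.

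The mammalian mitochondrial genome encodes core subunits of respiratory complexes I, III and IV and of the ATP synthase, together with the rRNAs and tRNAs that translate them. Its strands are transcribed as long precursors, which are cut mainly at the tRNAs that lie between the other genes, and most of the released mRNAs receive short poly(A) tails. Neural progenitors of the embryonic brain are known for a strong use of glycolysis, and reliance on respiration grows as neurons differentiate. Copies of mitochondrial DNA have also been inserted into the nuclear chromosomes during evolution, and a read from a mitochondrial mRNA can match such a copy as well as its true source.

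The shared sequence is shown first because it divides these genes by how far a read could be placed on 1 origin. The stretches below are the first 60 bases of the cytochrome c oxidase subunit gene mt-Co2 and the ATP synthase subunit gene mt-Atp6, each beside its copy on chromosome 1 (GENCODE M21 transcripts, GRCm38), 5′ to 3′. Capitals are not used, as no base differs within either pair.
mt-Co2 (chrMT:7013-7072, plus strand): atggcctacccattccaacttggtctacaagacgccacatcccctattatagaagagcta
Gm28661 (chr1:24615506-24615565, minus strand): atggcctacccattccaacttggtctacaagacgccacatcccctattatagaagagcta
mt-Atp6 (chrMT:7927-7986, plus strand): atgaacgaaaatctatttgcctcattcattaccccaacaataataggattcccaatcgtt
Gm10925 (chr1:24614592-24614651, minus strand): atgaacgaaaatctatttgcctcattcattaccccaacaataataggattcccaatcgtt

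Gm28661 aligned with bases 1 to 681 of mt-Co2 with 0 mismatches, and Gm10925 with bases 1 to 678 of mt-Atp6 with 0 mismatches. Both are annotated as unprocessed pseudogenes. The same stretch of chromosome 1 held Gm28437 (24613189 to 24613971), which aligned with 783 bases of mt-Co3 with 0 mismatches. It also held Gm28438, with 342 aligned bases of mt-Nd3, and Gm10222, with 294 aligned bases of mt-Nd4l, each with 0 mismatches. Gm28439 covered bases 1 to 876 of mt-Nd4 with 0 mismatches, and Gm29216 covered bases 1063 to 1545 of mt-Co1 with 1 mismatch. For each gene only the copy that shared the most exact sequence was aligned. Where that copy lay on another chromosome it was less alike, with 96.7% identity for Gm13339 and mt-Nd2, 95.3% for Gm4076 and mt-Nd5 and 90.4% for Gm20594 and a stretch of mt-Rnr2. Further copies, such as Gm13340 and Gm11512 for mt-Co1 and Gm13341 for mt-Co2, were not aligned.

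The 12 mitochondrial mRNAs differed in how much of their sequence such copies hold. For each gene, the share of its 50-base windows that occurred exactly in an annotated nuclear transcript was counted, on either strand. It was 98.0% to 100% for 5 genes, mt-Co2, mt-Co3, mt-Atp6, mt-Nd3 and mt-Nd4l. These genes averaged between 1.72 and 73.3 CPM per kb over the 4 libraries, where CPM is the count per 1000000 listed counts and per kb divides by annotated length. The other 7 genes shared at most 62.2% of their windows and averaged between 690 and 6169 CPM per kb. The highest single library among the 5 genes stood at 84.9 CPM per kb and the lowest among the other 7 at 597, so the sets did not overlap.

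Across the 12 genes the share of windows and the mean level had a Spearman correlation of -0.65, given as a description over genes that share libraries and genome. With windows of 36 or 75 bases it was -0.66 in each case. The order within the 7 genes did not follow the share. mt-Co1 shared 51.1% of its windows and had the highest level, while mt-Nd6, with 0%, had the lowest. The read length and the treatment of reads with several matches are not given in the sources used here, and their part in the low levels was not tested. A nuclear copy that is not an annotated transcript was not seen by this count, so a share of 0 does not show that a gene has none.

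**Figure D1:**
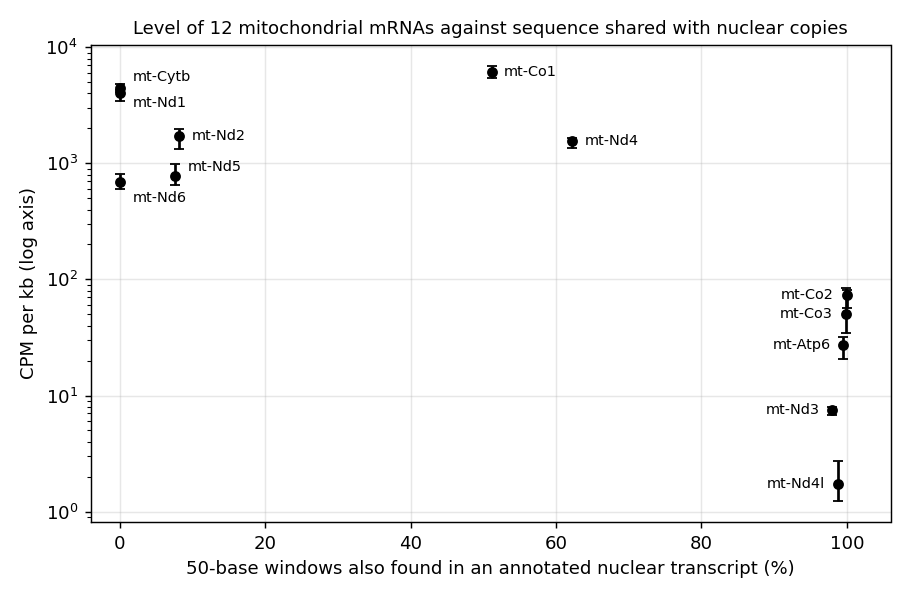
Mean level of the 12 mitochondrial mRNAs (CPM per kb, log axis) against the share of their 50-base windows found in an annotated nuclear transcript; points are means of 4 libraries and bars run from the lowest to the highest library. The 5 genes at 98.0% or more lie at or below 84.9 CPM per kb in each library, and the other 7 at or above 597.

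The counts of the copies, added to those of the genes, left the gap in place. A read dropped for having several matches would be in neither count, so this sum cannot test the part of the shared sequence. Gm10925 had 74.9 and 41.5 CPM in the Wt1_CKO libraries and 74.5 and 52.8 CPM in the Wt1_flfl libraries, more than mt-Atp6 in each library. For mt-Atp6 and Gm10925 together the sum ran from 55.4 to 95.6 CPM, for mt-Co2 and Gm28661 from 63.5 to 83.2 CPM, and for mt-Co3 and Gm28437 from 47.3 to 97.8 CPM. For mt-Nd3 and Gm28438 it ran from 8.68 to 14.6 CPM, and for mt-Nd4l and Gm10222 it was at most 1.40 CPM. The lowest value of any of the other 7 genes was 310 CPM, in mt-Nd6. Values of these 5 mRNAs are therefore uncertain as levels, a limit that holds for each of their values below. Totals over the 12 listed mRNAs, and shares of such totals, carry the same limit.

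The members lie on the mitochondrial chromosome in a compact order. On the plus strand mt-Rnr1 spans 70 to 1024 and mt-Rnr2 1094 to 2675, followed by mt-Nd1 (2751 to 3707), mt-Nd2 (3914 to 4951) and mt-Co1 (5328 to 6872). The stretch copied on chromosome 1 starts within mt-Co1, and takes in mt-Co2 (from 7013), mt-Atp6, mt-Co3, mt-Nd3, mt-Nd4l and the first part of mt-Nd4 (10167 to 11544). mt-Nd5 (11742 to 13565) and mt-Cytb (14145 to 15288) close the plus strand, and mt-Nd6 (13552 to 14070) and mt-Tp lie on the minus strand.

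Per length, mt-Co1, the catalytic subunit of complex IV, stood highest with 6169 ± 611 CPM per kb (SD over the 4 libraries, n = 4). Its range over libraries lay above that of mt-Cytb, the cytochrome b of complex III, at 4489 ± 279 CPM per kb (n = 4). The complex I subunit mt-Nd1 had 3996 ± 390 CPM per kb, and its range overlapped that of mt-Cytb. Next came the complex I subunits mt-Nd2 and mt-Nd4, at 1711 ± 305 and 1558 ± 139 CPM per kb, which overlapped each other. mt-Nd5 had 781 ± 141 CPM per kb and mt-Nd6 had 690 ± 89.2 CPM per kb, again with overlapping ranges. Below a gap came mt-Co2 and mt-Co3, overlapping, then mt-Atp6, mt-Nd3 and mt-Nd4l, each below the one before it in every library. The place of mt-Nd4 depends on dividing by full length, as it shares 62.2% of its windows and mt-Co1 51.1%. Per 1000 windows not shared, mt-Co1 averaged 13039 CPM, mt-Cytb 4689, mt-Nd4 4278, mt-Nd1 4212 and mt-Nd2 1955. On that scale mt-Nd5 averaged 869 CPM and mt-Nd6 762. Which scaling lies nearer the true levels was not tested.

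mt-Nd6 is the only mitochondrial protein gene read from the other strand, and in human cells its mRNA is known to lack a stable poly(A) tail. The labels do not say whether strand was kept. mt-Nd6 overlaps the end of mt-Nd5 by 14 bases, and reads there could be told apart only if strand was kept. The genes mt-Nd4l and mt-Nd4 overlap by 7 bases and mt-Atp6 and mt-Co3 by 1 base.

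The 3′ ends of the coding sequences show how closely the poly(A) tail belongs to the message. The last 24 bases of 4 genes follow, from GENCODE M21 transcripts (GRCm38), all on the plus strand, with the final codon, or what is left of it, in capitals.
mt-Co1 (chrMT:6849-6872): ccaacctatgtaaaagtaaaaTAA
mt-Co3 (chrMT:9367-9390): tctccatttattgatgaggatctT
mt-Nd4 (chrMT:11521-11544): aactaattacaggcctgacaataT
mt-Cytb (chrMT:15265-15288): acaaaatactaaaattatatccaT

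mt-Co1 carries a whole stop codon. The annotated coding sequences of mt-Co3, mt-Nd4 and mt-Cytb, of 784, 1378 and 1144 bases, end on a lone T past the last full codon, which polyadenylation is known to complete to a stop. The libraries were made from RNA enriched on oligo(dT) beads, so a message is captured through that tail.

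**Figure D2:**
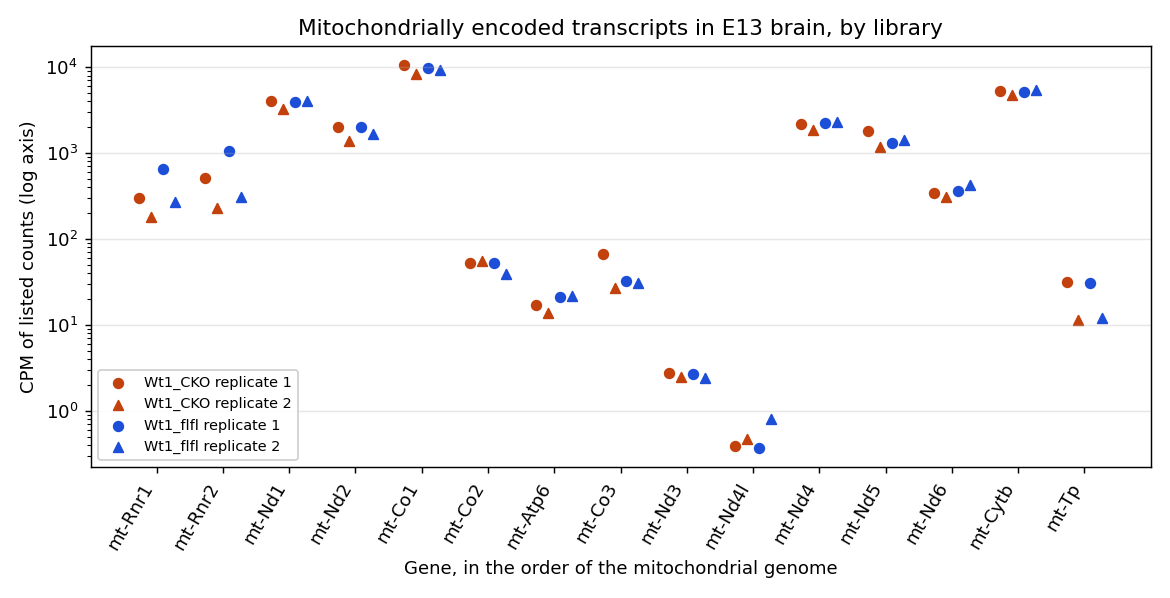
CPM of listed counts (log axis) of the 15 mitochondrially encoded genes in the order of the genome; points are single libraries, with circles for replicate 1 and triangles for replicate 2. The block from mt-Co2 to mt-Nd4l lies at or below 66.5 CPM while the other mRNAs lie at or above 310.

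Mitochondrial mRNAs made up a few percent of each library and the genotypes overlapped. The 12 protein_coding genes took 2.64% and 2.12% of listed counts in Wt1_CKO replicates 1 and 2, and 2.50% and 2.47% in Wt1_flfl replicates 1 and 2. Replicate 1 of Wt1_CKO was the highest of the 4 libraries and replicate 2 of Wt1_CKO the lowest. All 15 genes together took 2.72% and 2.16% in Wt1_CKO and 2.67% and 2.53% in Wt1_flfl. The mean of the protein_coding share was 2.38 ± 0.367% in Wt1_CKO and 2.48 ± 0.0164% in Wt1_flfl (SD, n = 2 each). The log2 difference was -0.07, with p = 1 in a two-sided exact permutation test, whose smallest possible p with 2 samples a group is 0.333. Wilson 95% intervals on the shares, which cover counting error only, were at most 0.0152 percentage points wide. In bulk samples, fewer cells of a type and less RNA per cell cannot be told apart.

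The rRNAs mt-Rnr1 and mt-Rnr2, of the small and the large mitochondrial ribosomal subunit, took 0.0819% and 0.0412% of listed counts in the Wt1_CKO libraries, against 0.172% and 0.0582% in the Wt1_flfl libraries. The log2 difference in share was -0.78 with an exact permutation p of 0.667, and the genotypes overlapped. As the RNA was enriched on oligo(dT) beads, rRNA counts here need not give the abundance of rRNA in the tissue. Set against the mitochondrial mRNAs, there were 3.11 and 1.95 rRNA counts per 100 mRNA counts in Wt1_CKO, and 6.88 and 2.35 in Wt1_flfl. The log2 difference in this ratio was -0.71 (exact permutation p = 0.667), and it was 0.06 without Wt1_flfl replicate 1, the library highest in rRNA. mt-Rnr2 exceeded mt-Rnr1 1.74 and 1.29 times in the Wt1_CKO libraries and 1.66 and 1.13 times in the Wt1_flfl libraries, the higher value in replicate 1 of each genotype.

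**Figure D3:**
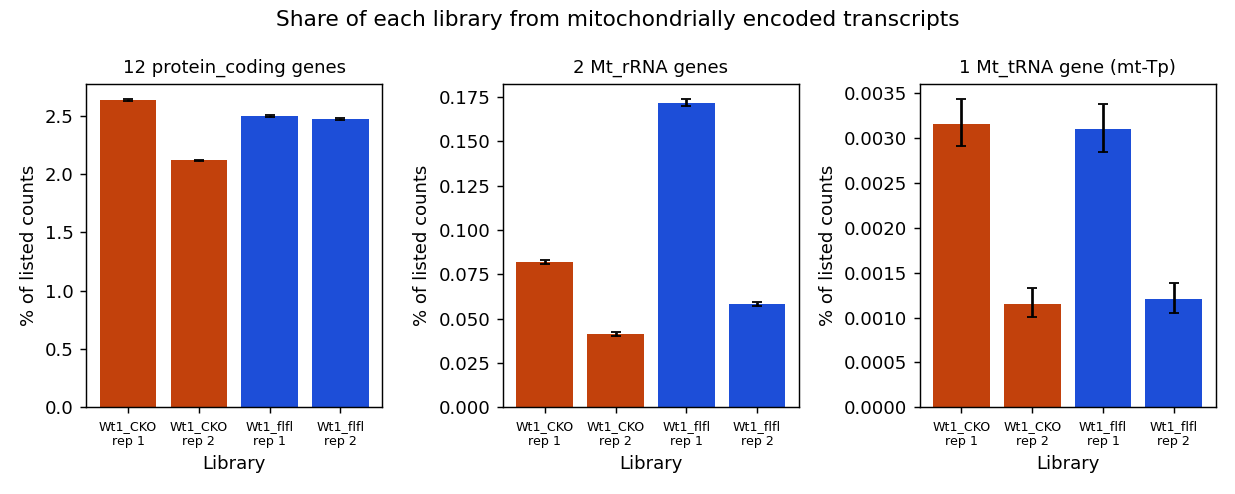
Share of each library's listed counts (%) from mitochondrial mRNAs, rRNAs and the tRNA mt-Tp; bars are single libraries and error bars are Wilson 95% intervals. The mRNA share stays between 2.12% and 2.64%, while Wt1_flfl replicate 1 stands highest in rRNA at 0.172% and both replicate 1 libraries stand highest for mt-Tp.

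No mitochondrially encoded gene passed the comparison of Wt1_CKO with Wt1_flfl brain by genotype alone. edgeR's quasi-likelihood test, with an adjusted p below 0.05 as its threshold, called 0 of the 14 members tested, where it called 1 of 15933 genes (0.00628%). An unadjusted p below 0.05 was found for 1 member, mt-Atp6, against 1.56% of all genes. mt-Nd4l, with 7 and 8 counts in the Wt1_CKO libraries and 6 and 14 in the Wt1_flfl libraries, did not pass the filter on low counts. DESeq2 and limma-voom likewise called 0 members, each with 1 at an unadjusted p below 0.05. With the replicate number as a block, edgeR called 2 members, both lower in Wt1_CKO. They were mt-Rnr1 (adjusted p 0.00068) and mt-Rnr2 (adjusted p 0.012). By genotype alone, the median log2 fold change of the 14 members was -0.11, beside 0.01 for all genes tested. Values in CPM from here on are scaled by TMM, a between-library normalization.

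Of the complex I messages tested, none was called. mt-Nd1 had 4063 and 3266 CPM in the Wt1_CKO libraries, against 3938 and 4053 CPM in the Wt1_flfl libraries. Its log2 fold change was -0.12 (SE 0.159), within the spread of the replicates, and its share of mitochondrial mRNA counts was 15.5% in each Wt1_CKO library and 15.6% and 16.3% in the Wt1_flfl libraries. mt-Nd2 had 2013 and 1373 CPM in Wt1_CKO and 2058 and 1669 CPM in Wt1_flfl.

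In mt-Nd2, replicate 1 was the higher library of each genotype. mt-Nd4 had 2149 and 1868 CPM in Wt1_CKO and 2278 and 2308 CPM in Wt1_flfl. Its genotypes did not overlap, with a log2 fold change of -0.19 (SE 0.101) and an edgeR adjusted p of 1. That log2 fold change was -0.09 without Wt1_CKO replicate 2.

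mt-Nd5 had 1777 and 1183 CPM in Wt1_CKO and 1326 and 1418 CPM in Wt1_flfl, so that replicates 1 and 2 of Wt1_CKO lay on either side of Wt1_flfl. mt-Nd6 had 343 and 309 CPM in Wt1_CKO and 362 and 422 CPM in Wt1_flfl, again without overlap, with a log2 fold change of -0.27 (SE 0.135), which was -0.15 without Wt1_flfl replicate 2. mt-Nd3, a short subunit whose sequence is nearly all shared with Gm28438, had 2.75 and 2.50 CPM in Wt1_CKO and 2.74 and 2.40 CPM in Wt1_flfl.

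In complex IV, mt-Co1 had 10530 and 8311 CPM in Wt1_CKO and 9973 and 9365 CPM in Wt1_flfl, with a log2 fold change of -0.04 (SE 0.177). mt-Co1 alone held 40.1% and 39.4% of the counts of the 12 listed mitochondrial mRNAs in Wt1_CKO and 39.6% and 37.7% in Wt1_flfl. mt-Co2 had 53.0 and 55.0 CPM in Wt1_CKO and 53.7 and 39.0 CPM in Wt1_flfl.

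mt-Co3 had 66.2 and 26.8 CPM in Wt1_CKO and 32.4 and 31.2 CPM in Wt1_flfl. The library of Wt1_CKO replicate 1 stood above the other 3, which lay close together. The copy Gm28437 did not stand apart in that library, with 31.2 and 20.5 CPM of listed counts in Wt1_CKO and 29.7 and 23.6 CPM in Wt1_flfl. The log2 fold change of mt-Co3 was 0.55 (SE 0.652), and it was -0.25 without Wt1_CKO replicate 1.

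mt-Cytb of complex III had 5225 and 4691 CPM in Wt1_CKO and 5167 and 5485 CPM in Wt1_flfl, with a log2 fold change of -0.10 (SE 0.0889). mt-Atp6 of the ATP synthase had 17.0 and 13.9 CPM in Wt1_CKO, against 21.3 and 21.9 CPM in Wt1_flfl. The groups of mt-Atp6 did not overlap. With its copy Gm10925 added they did, at 92.0 and 55.4 CPM of listed counts in Wt1_CKO and 95.6 and 74.6 CPM in Wt1_flfl. The log2 fold change of mt-Atp6 alone was -0.48 (SE 0.148), with an unadjusted p of 0.0303 and an adjusted p of 1 in edgeR's fit across all genes.

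Over the 14 members, the genotypes did not overlap for 3, all lower in Wt1_CKO (mt-Nd4, mt-Nd6 and mt-Atp6), where 13.5% of all genes tested lay lower in Wt1_CKO without overlap. None lay higher without overlap, where 13.4% of all genes did. Within replicate 1 the median log2 fold change of the members, Wt1_CKO over Wt1_flfl, was -0.01, and within replicate 2 it was -0.27. Lower values in Wt1_CKO within both numbers were found for 6 of 14 members, beside 25.8% of all genes.

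The rRNAs had the lowest fold changes of the members, with none called in the comparison of the 4 libraries by genotype alone. Both were called lower in Wt1_CKO with the replicate number as a block (edgeR adjusted p 0.00068 for mt-Rnr1 and 0.012 for mt-Rnr2). mt-Rnr1 had 298 and 179 CPM in Wt1_CKO and 652 and 274 CPM in Wt1_flfl, with a log2 fold change of -0.96 (SE 0.724) and an edgeR adjusted p of 1. mt-Rnr2 had 518 and 232 CPM in Wt1_CKO and 1083 and 310 CPM in Wt1_flfl, with a log2 fold change of -0.89 (SE 1.07) and an edgeR adjusted p of 1. In both genes Wt1_flfl replicate 1 was the highest library by far, and Wt1_CKO replicate 1 exceeded Wt1_flfl replicate 2. Within each number both rRNAs were lower in Wt1_CKO, with log2 differences of -1.13 in replicate 1 and -0.61 in replicate 2 for mt-Rnr1, and -1.06 in replicate 1 and -0.42 in replicate 2 for mt-Rnr2.

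The rRNA fold changes by genotype varied with the library left out. Without Wt1_flfl replicate 2 they were -1.45 for mt-Rnr1 and -1.53 for mt-Rnr2 on the log2 scale. Without Wt1_flfl replicate 1 they were -0.20 and 0.27. Each such fit leaves 1 genotype with only 1 replicate number, so genotype and number are partly mixed in it. By number, replicate 2 over replicate 1, the log2 fold changes from all 4 libraries were -1.07 for mt-Rnr1 and -1.56 for mt-Rnr2. Nuclear genes with the biotype rRNA (26 listed, 13 in both tables) were, as a sum, also highest in Wt1_flfl replicate 1. Their sums were 451 and 268 CPM of listed counts in Wt1_CKO, and 4582 and 184 CPM in Wt1_flfl. A list of 233 further genes, 132 of them in both tables, held RNAs that mostly carry no poly(A) tail. It summed to 75.9 and 70.0 CPM in Wt1_CKO and 157 and 62.7 CPM in Wt1_flfl. The part of these RNAs in the rRNA values was not tested.

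The authors' deposited table for replicate 1, which compares 1 library with 1 library, marks mt-Rnr1 (log2 fold change -1.11), mt-Rnr2 (-1.04) and mt-Co3 (1.05) as significant. The authors' deposited table for replicate 2 marks none of the 15 genes, with log2 fold changes of -0.60 for mt-Rnr1, -0.41 for mt-Rnr2 and -0.21 for mt-Co3. The mark does not follow the authors' adjusted p alone. Both rRNAs had an adjusted p below 0.05 in the table for replicate 2, and each marked log2 fold change exceeded 1 in size. The authors' adjusted p rests on 1 library set against 1 library. mt-Atp6 is marked in neither, with log2 fold changes of -0.30 and -0.65 in the authors' deposited tables for replicates 1 and 2.

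**Figure D4:**
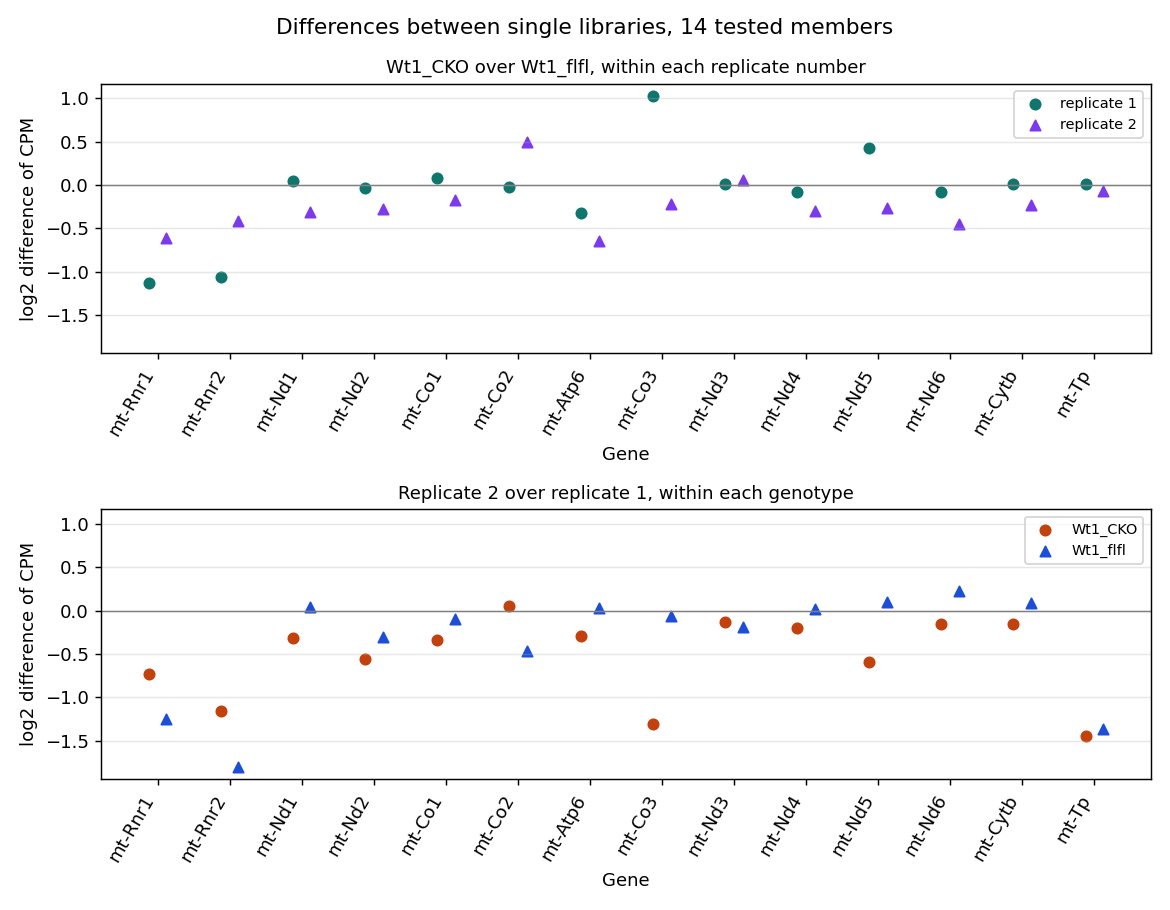
Log2 differences of CPM between single libraries for the 14 tested members, Wt1_CKO over Wt1_flfl within each replicate number (top) and replicate 2 over replicate 1 within each genotype (bottom). In the top panel mt-Co3 reads 1.03 in replicate 1 and -0.22 in replicate 2; in the bottom panel mt-Tp reads -1.44 in Wt1_CKO and -1.36 in Wt1_flfl.

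The replicate numbers divided some members more than the genotypes did. Each deposited table holds the libraries of 1 number, and no label says what a number stands for. The lone tRNA, mt-Tp, which carries proline, is encoded beside the control region on the same strand as mt-Nd6, and its gene (GENCODE M21 transcript, GRCm38, chrMT:15356-15422, minus strand) is short enough to print whole, 5′ to 3′.
mt-Tp: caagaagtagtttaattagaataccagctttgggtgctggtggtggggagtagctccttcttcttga

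In the Wt1_CKO libraries mt-Tp had 11.5 CPM in replicate 2 and 31.5 CPM in replicate 1. In the Wt1_flfl libraries it had 12.1 CPM in replicate 2 and 31.3 CPM in replicate 1. Libraries of 1 number were nearly level, and the numbers were far apart. The mean was 11.8 ± 0.424 CPM in replicate 2 and 31.4 ± 0.110 CPM in replicate 1 (SD, n = 2 each), and the log2 fold change was -1.41 (SE 0.0365) and an edgeR adjusted p of 0.00193. The counts behind these values were 198 and 207 in replicate 2 and 560 and 503 in replicate 1. Capture in these libraries relied on a poly(A) tail, so mt-Tp counts need not give the abundance of the tRNA in the tissue. If strand was not kept, reads from the plus strand could also be counted at mt-Tp. The origin of the mt-Tp reads was not tested.

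mt-Rnr2 was the other member called in this comparison, lower in replicate 2. Its mean was 271 ± 55.5 CPM in replicate 2 and 800 ± 400 CPM in replicate 1 (SD, n = 2 each), and the log2 fold change was -1.56 (SE 0.572) and an edgeR adjusted p of 0.0296. The call on mt-Rnr2 was lost with DESeq2 (adjusted p = 0.0904), without the filter on low counts (adjusted p = 0.0513) and without Wt1_flfl replicate 1 (adjusted p = 0.0613), the log2 fold change then being -0.94. That on mt-Tp was kept in every alternative tried, with adjusted p from 4.99e-11 to 0.0191. Within Wt1_CKO the log2 difference of mt-Rnr2, replicate 2 over replicate 1, was -1.16, and within Wt1_flfl it was -1.80. mt-Rnr1 had a mean of 227 ± 66.8 CPM in replicate 2 and 475 ± 250.5 CPM in replicate 1 (SD, n = 2 each), and did not pass (edgeR adjusted p = 0.116).

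The 2 calls among 14 members stood beside 313 among 15933 genes (1.96%), of which 172 were lower in replicate 2 (1.08%). An unadjusted p below 0.05 was found for 6 of the 14, beside 17.9% of all genes. Replicates did not overlap for 7 members, all lower in replicate 2 (mt-Tp, mt-Rnr1, mt-Rnr2, mt-Nd2, mt-Nd3, mt-Co1 and mt-Co3), where 25% of all genes lay lower in replicate 2 without overlap. None lay higher without overlap, where 24.7% of all genes did. No mRNA of the mitochondrial genome was called by edgeR from the 4 libraries by number alone. mt-Nd2 had the lowest adjusted p among them, with 1521 ± 209 CPM in replicate 2 and 2036 ± 31.4 CPM in replicate 1 (SD, n = 2 each) and an edgeR adjusted p of 0.0896, and DESeq2 called it (adjusted p = 0.0058). With genotype as a second term edgeR called mt-Nd2 (adjusted p = 0.00846), mt-Co3 (adjusted p = 0.0302) and mt-Rnr1 (adjusted p = 1.83e-05) as well. The log2 fold change of mt-Co3 was -0.77 (edgeR adjusted p = 0.173). It was called on leaving out Wt1_CKO replicate 2 (-0.67), Wt1_flfl replicate 1 (-1.19) or Wt1_flfl replicate 2 (-0.88), and its log2 fold change was -0.16 with Wt1_CKO replicate 1 left out. mt-Rnr1 was called on leaving out Wt1_CKO replicate 1 (-1.52), Wt1_CKO replicate 2 (-0.80) or Wt1_flfl replicate 2 (-1.40), and mt-Nd2 on leaving out Wt1_flfl replicate 2 (-0.57).

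The summed level of the erythroid markers moved with the number too. The 7 genes of the erythroid list summed to 1676 and 1642 CPM of listed counts in replicate 2 (Wt1_CKO, then Wt1_flfl), and to 681 and 733 CPM in replicate 1. Their part in the differences by number was not tested.

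Genes of the nucleus that act on the mitochondrial genome did not pass between the genotypes. The list held transcription and replication factors, RNA processing and decay enzymes and rRNA modifiers, and of its 41 genes 39 were tested, with 0 called in either direction and 0 at an unadjusted p below 0.05. Their median log2 fold change was 0.02. Tfam, which packages mitochondrial DNA and drives its transcription, had 71.6 ± 4.94 CPM in Wt1_CKO and 62.7 ± 3.84 CPM in Wt1_flfl (SD, n = 2 each), and the log2 fold change was 0.19. Polg, the mitochondrial DNA polymerase, had 58.9 and 62.0 CPM in Wt1_CKO and 48.1 and 57.3 CPM in Wt1_flfl, so the groups did not overlap, with a log2 fold change of 0.20. The log2 fold changes of the RNA exonuclease Pnpt1 and the helicase Ddx28 were 0.19 and -0.22. Between replicate numbers 0 of the 39 were called by edgeR, with 6 at an unadjusted p below 0.05, where 17.9% of all genes were, and a median log2 fold change of -0.12.

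The partner subunits made in the nucleus were likewise not called between the genotypes. Of 57 nuclear-encoded subunits of complexes I, III, IV and V, 57 were tested, with 0 called and a median log2 fold change of -0.04. Cox8a of complex IV had 129 ± 17.8 CPM in Wt1_CKO and 148 ± 4.52 CPM in Wt1_flfl (SD, n = 2 each), and Atp5h of the ATP synthase had 153 ± 6.14 CPM in Wt1_CKO and 169 ± 3.66 CPM in Wt1_flfl. The log2 fold changes of the complex I subunits Ndufa8 and Ndufs7 were -0.19 and -0.18. Between replicate numbers 5 of the 57 were called higher in replicate 2 (Cox5b, Cox7c, Ndufs6, Uqcr11 and Atp5k) and 1 lower (Ndufc2), beside the 1.96% of all genes called in either direction, and the median log2 fold change of the 57 was 0.04.

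Of a list of 10 nuclear copies, 9 stood in both tables and 8 were tested, with 0 called between the genotypes and a median log2 fold change of -0.07. Gm28438, the copy of mt-Nd3, had 119 and 111 counts in Wt1_CKO and 193 and 108 counts in Wt1_flfl, and Gm29216, the copy of the end of mt-Co1, had 157 and 129 counts in Wt1_CKO and 140 and 164 in Wt1_flfl. Gm10222 had 16 and 9 counts in Wt1_CKO and 11 and 10 in Wt1_flfl. Between replicate numbers 2 of the 8 copies were called lower in replicate 2, beside 1.08% of all genes. Gm10925 had 47.2 ± 8.24 CPM in replicate 2 and 74.9 ± 0.486 CPM in replicate 1, and Gm28439, the copy of the first part of mt-Nd4, had 8.07 ± 0.242 CPM in replicate 2 and 15.3 ± 0.901 CPM in replicate 1 (SD, n = 2 each). The mitochondrial genes they copy, mt-Atp6 and mt-Nd4, were not called in that comparison, with edgeR adjusted p of 0.85 and 0.7515, and the difference between gene and copy was not tested.

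Library totals ran from 16219310 to 17704698 listed counts. All 8 neural tissue markers were listed in every library and summed to 5465 and 5662 CPM of listed counts in Wt1_CKO and to 5814 and 5858 CPM in Wt1_flfl. Striated muscle, a tissue rich in mitochondria, had all 5 markers listed, 4 of them in both tables. Its sums were 2.94 and 2.56 CPM in Wt1_CKO and 4.01 and 3.38 CPM in Wt1_flfl. Sums for the other lists ran from 25.6 to 60.2 CPM in Wt1_CKO and 22.6 to 48.0 CPM in Wt1_flfl for choroid plexus (4 of 5 listed, Kcnj13 not), and from 20.2 to 26.0 CPM in Wt1_CKO and 23.9 to 39.6 CPM in Wt1_flfl for meninges and mesenchyme. Endothelium ran from 83.0 to 84.9 CPM in Wt1_CKO and 88.5 to 98.9 CPM in Wt1_flfl, and microglia from 20.2 to 21.5 CPM in Wt1_CKO and 19.4 to 19.6 CPM in Wt1_flfl. No check of the genotypes against the Wt1 transcript was made, as that transcript was not analysed here.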

How the data were processed

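Libraries came from total RNA bound to oligo(dT) beads, fragmented and reverse transcribed from random primers, per the labels' protocols. HTSeq 0.6.0, TopHat2 2.0.12 and Bowtie2 2.2.3 are named, with build mm9, per the submitters' processing notes. Of 22368 listed genes found in GENCODE M21 (GRCm38), 92.1% had the same position there, including all 15 members, so positions are given on GRCm38. The authors deposited raw counts by Ensembl gene in 2 tables, 1 for each replicate number, and a log2 fold change and adjusted p-value for single libraries set against each other. The sources used here do not give that test.

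Deposited counts were joined over the 19500 genes that both tables hold and passed to edgeR 4.0.16 under R 4.3.3 (filterByExpr with a minimum count of 10, TMM, quasi-likelihood F test, Benjamini-Hochberg adjustment over 15933 genes, threshold 0.05), once by genotype and once by replicate number. The SE of a fold change comes from the SDs of 2 libraries a group on log2 CPM with a prior count of 2, is imprecise and is not the spread edgeR uses. Alternatives used DESeq2 1.42.0 and limma 3.58.1. The test was tried on simulated counts. Shares of counts rest on all listed genes. All members are named, and of each other list the genes called or up to 4 with the smallest p by genotype. Members and lists were chosen with earlier results of these data known. Sequences are from GENCODE M21 transcripts. Depth was 16219310 to 17704698 counts a library.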

Additional observations from a re-analysis of the deposited data

How the results depend on the processing

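Between the genotypes, 0 members were called with DESeq2, limma-voom, other scalings, other filters, genes of either table, or mitochondrial genes left out of the library sizes. Over all genes 1 was called, and 5 with DESeq2. Leaving out 1 library, where the lone sample left is assumed to vary like the others, gave 3 calls (Wt1_CKO replicate 1 left out), 7 (Wt1_CKO replicate 2), 73 (Wt1_flfl replicate 1) and 29 (Wt1_flfl replicate 2) over all genes. Among members it gave 0 to 2, the 2 being without Wt1_flfl replicate 2. The replicate number as a block gave 42 calls over all genes and 2 among members, mt-Rnr1 (log2 fold change -0.87, edgeR adjusted p 0.00068) and mt-Rnr2 (-0.74, adjusted p 0.012), both lower in Wt1_CKO. The numbers are not known to pair the samples, as no label says what they mark. Deviations of same-numbered libraries had a correlation of 0.28 across genes. That value rests on only 4 libraries and cannot decide whether the samples are paired. By replicate number, calls over all genes were 313, against 1138 with genotype as a second term, 197 without a filter, 578 with DESeq2, and, with 1 library left out, 71 (Wt1_CKO replicate 1), 940 (Wt1_CKO replicate 2), 132 (Wt1_flfl replicate 1) and 440 (Wt1_flfl replicate 2). Calls among members were 2, against 5 with genotype as a second term (mt-Co3, mt-Nd2, mt-Rnr1, mt-Rnr2 and mt-Tp), 1 without a filter and 2 to 5 without 1 library, with 4 without Wt1_CKO replicate 2 and 5 without Wt1_flfl replicate 2.

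With library totals in place of TMM the genotype log2 fold change of mt-Tp was 0.0062. Without 1 library the genotype values ran from -0.22 to 0.12 for mt-Co1, -0.25 to 1.06 for mt-Co3, -0.29 to 0.025 for mt-Nd1, -0.44 to 0.11 for mt-Nd2, -0.061 to 0.13 for mt-Nd3, -0.21 to 0.37 for mt-Nd5, -1.59 to 0.27 for mt-Rnr2 and -0.92 to 0.83 for mt-Tp. They ran from -0.23 to 0.086 for the log2 share of mRNAs, -0.74 to 0.71 for that of mt-Tp and -1.48 to 0.064 for the log2 ratio of rRNA to mRNA. By replicate number they ran from -0.46 to 0.19 for mt-Atp6, -0.45 to 0.044 for mt-Co2, -0.15 to 0.076 for mt-Cytb, -0.29 to 0.017 for mt-Nd1, -0.24 to 0.059 for mt-Nd4 and -0.19 to 0.26 for mt-Nd6. A fit by genotype without 1 library leaves 1 genotype with only 1 replicate number, so genotype and number are partly mixed in it. For mt-Tp, same-numbered libraries were nearly level and the log2 fold change by number was -1.41. The part of the number in these ranges was not tested, nor was any other cause.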
